A study of Sus scrofa with 12 samples.

Results

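TFAM, TFB2M and 8 other nuclear genes that serve the mitochondrial genome were followed in porcine embryos with and without depletion of cyclin B2. The members were chosen by name, as the transcription and replication factors of mitochondrial DNA, because TFAM differed about 100-fold between the control groups of these same data. TFAM was therefore selected on its values in the control libraries, and the question put to the other members was which of them go with it. The table held 10 of 10 member symbols among 29329 genes, and all 10 passed the filter on low counts that left 17995 genes for testing.

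Mitochondrial DNA is a small circular genome that lies in the mitochondrial matrix, and its copying and reading depend wholly on proteins encoded in the nucleus. A single RNA polymerase, POLRMT, transcribes it together with TFAM, which bends and packages the DNA, and TFB2M, which helps to melt the promoter. The replisome consists of the polymerase gamma subunits POLG and POLG2, the helicase TWNK and the single-stranded DNA binding protein SSBP1. Early mammalian embryos live on the mitochondria and transcripts of the oocyte, and mitochondrial DNA replication largely pauses during the first cleavages, so that the supply of these factors is regarded as a feature of the passage from maternal to embryonic gene expression.

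The study asked how depletion of CCNB2, a mitotic cyclin, affects maternal transcript loss and zygotic genome activation in embryos of Sus scrofa produced by in vitro fertilisation. SMART-seq, in which polyadenylated RNA of a few cells is copied into full-length cDNA and amplified by PCR, gave 12 libraries in 4 groups of 3, each a pool of several embryos. Control groups are titled con-2c and con-4c and are labelled blank control, and groups injected with a short interfering RNA against CCNB2 (si-CCNB2) are titled si-2c and si-4c. Whether control embryos received an injection was not clear from the labels and methods, so a difference between si and control libraries may include the injection.

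The stage given in the title and that given as tissue disagreed in all 12 libraries, 2c standing beside 4-cell and 4c beside 2-cell. Group names here follow the titles only. A reader who takes the tissue label must reverse the sign of every difference between 2c and 4c within an arm and of the interaction. Genes with a count numbered 18034 to 18819 in con-2c and 18083 to 18231 in si-4c. In con-4c they numbered 21181 to 21647, and in si-2c 22105 to 23279. An exchange of stage in 1 arm alone was not tested, and it cannot be told apart here from an effect of the si RNA. The target of the si RNA was low in both injected groups, with CCNB2 at 464 ± 21.7 CPM (SD, n = 3) in con-2c, 42.6 ± 3.65 in si-4c, 475 ± 41.9 in con-4c and 22.7 ± 5.58 in si-2c. Library totals ranged from 27785233 to 39510908 counts, and a single count was worth 0.0215 to 0.0331 CPM. All levels are TMM-scaled CPM, that is counts scaled to the size of their library, and they compare a gene between groups but not with another gene, since no transcript lengths were used. The 10 oocyte and early embryo markers in the table were detected in all 12 libraries, and their summed level was 19854 to 24855 CPM in con-2c, 22828 to 24976 in si-4c, 10035 to 10812 in con-4c and 10127 to 11960 in si-2c. This sum was led by BTG4, a maternal transcript that codes for an adaptor in messenger RNA decay, at means of 18571 CPM in con-2c, 19671 in si-4c, 7682 in con-4c and 7897 in si-2c. The sum moved opposite to TFAM but mostly reflects BTG4, and the list was mixed. From con-2c to si-2c, BTG4, OOEP and ZP4 were called lower, and the other 7 were not called, among them BMP15 at 0.47 (SE 0.07, adjusted p = 8.55e-05 by edgeR) and ZP2 at 0.04 (SE 0.07). Of the 11 cumulus and granulosa cell markers in the table, VCAN alone made up nearly all of a sum of 291 to 368 CPM in con-2c, 291 to 300 in si-4c, 175 to 186 in con-4c and 170 to 197 in si-2c, while HAS2, FOXL2 and CYP11A1 each had counts in only 1 library and the 10 without VCAN reached at most 1.98 CPM in any library. Among the 5 of these markers that were tested, and named after their values were seen, PTX3 was called higher in si-2c (0.604 ± 0.222 CPM) than in con-2c (0 counts), and TNFAIP6 was called lower in si-4c (0.0900 ± 0.156 CPM) than in con-4c (1.04 ± 0.125), while VCAN ran opposite to TFAM. PTX3, TNFAIP6 and VCAN were also called in the interaction. The 5 sperm markers in the table, mostly ODF2, summed to 6.60 to 9.62 CPM in con-2c, 9.77 to 11.8 in si-4c, 9.94 to 14.6 in con-4c and 10.8 to 16.4 in si-2c. AKAP4, a protein of the sperm tail, had counts in 5 libraries, with none in con-2c or si-4c and means of 0.648 ± 0.495 CPM in si-2c and 0.349 ± 0.316 in con-4c, and it was called in the direction of TFAM in the 4 comparisons within an arm or between arms by stage. The part of these markers in the results was not tested. In pools of whole embryos, fewer cells of a type and less RNA per cell cannot be told apart.

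TFAM (ENSSSCG00000040185, chr14:92261713-92279731 in Sscrofa11.1) coats mitochondrial DNA and is required for transcription from its promoters. Its level was 1.34, 1.34 and 1.45 CPM in con-2c, 0.900, 0.347 and 0.836 CPM in si-4c, 133, 144 and 139 CPM in con-4c and 61.1, 63.0 and 78.6 CPM in si-2c. The 4 groups did not overlap anywhere, and they stood in the order si-4c, con-2c, si-2c, con-4c from lowest to highest. In the control arm, whose values chose the gene, con-4c was 101-fold above con-2c (log2 fold change 6.65, SE 0.18), which is a description with no test. In the si arm, which shares no library with that choice, TFAM fell by 6.60 on the log2 scale from si-2c to si-4c (SE 0.19, adjusted p = 2.10e-13 by the quasi-likelihood test of edgeR), so that si-4c retained 1.03% of the si-2c level. The values of TFAM in these groups had also been seen before the members were chosen, so this p is no independent support. Levels in si-2c were 49.2-fold those of con-2c (log2 fold change 5.62, SE 0.18) and levels in si-4c were 0.501% of those of con-4c (-7.64, SE 0.20), also given without a test because each shares libraries with the choice of the gene. By title stage, the control and si arms thus ran in opposite directions.

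TFB2M (ENSSSCG00000023775, chr10:19028813-19046343) is the partner of POLRMT that opens the promoter. Its level was 0.286, 0.683 and 0.892 CPM in con-2c, 0.150, 0.145 and 0.119 CPM in si-4c, 6.39, 8.85 and 6.73 CPM in con-4c and 2.36, 2.87 and 2.62 CPM in si-2c. The 4 groups were again free of overlap and stood in the same order as for TFAM. The order was taken from TFAM, and of the 9 other members only TFB2M had it with no overlap between neighbouring groups. This pattern was looked for after the values were seen and was held by 0.639% of all genes tested. From si-2c to si-4c TFB2M fell by 4.21 on the log2 scale (SE 0.40, adjusted p = 6.46e-07 by edgeR) to 5.28% of the si-2c level. Compared with control libraries of the same title stage, it was higher in si-2c by 2.06 on the log2 scale (SE 0.33, adjusted p = 1.60e-04 by edgeR) and lower in si-4c (-5.69, SE 0.41, adjusted p = 9.51e-09 by edgeR). The low groups rest on few reads, 9 to 29 counts per library in con-2c and 4 or 5 in si-4c, so their ratio is imprecise. The difference between them (log2 fold change -2.14, SE 0.44, adjusted p = 0.0321 by edgeR) lost its call when any of 8 single libraries was left out (con-2c replicate 2 or 3, or any library of con-4c or si-4c), while the value itself stayed between -2.48 and -1.82 in 17 settings. When only these groups were fitted, TFB2M fell below the filter on low counts and was not tested.

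**Figure D1:**
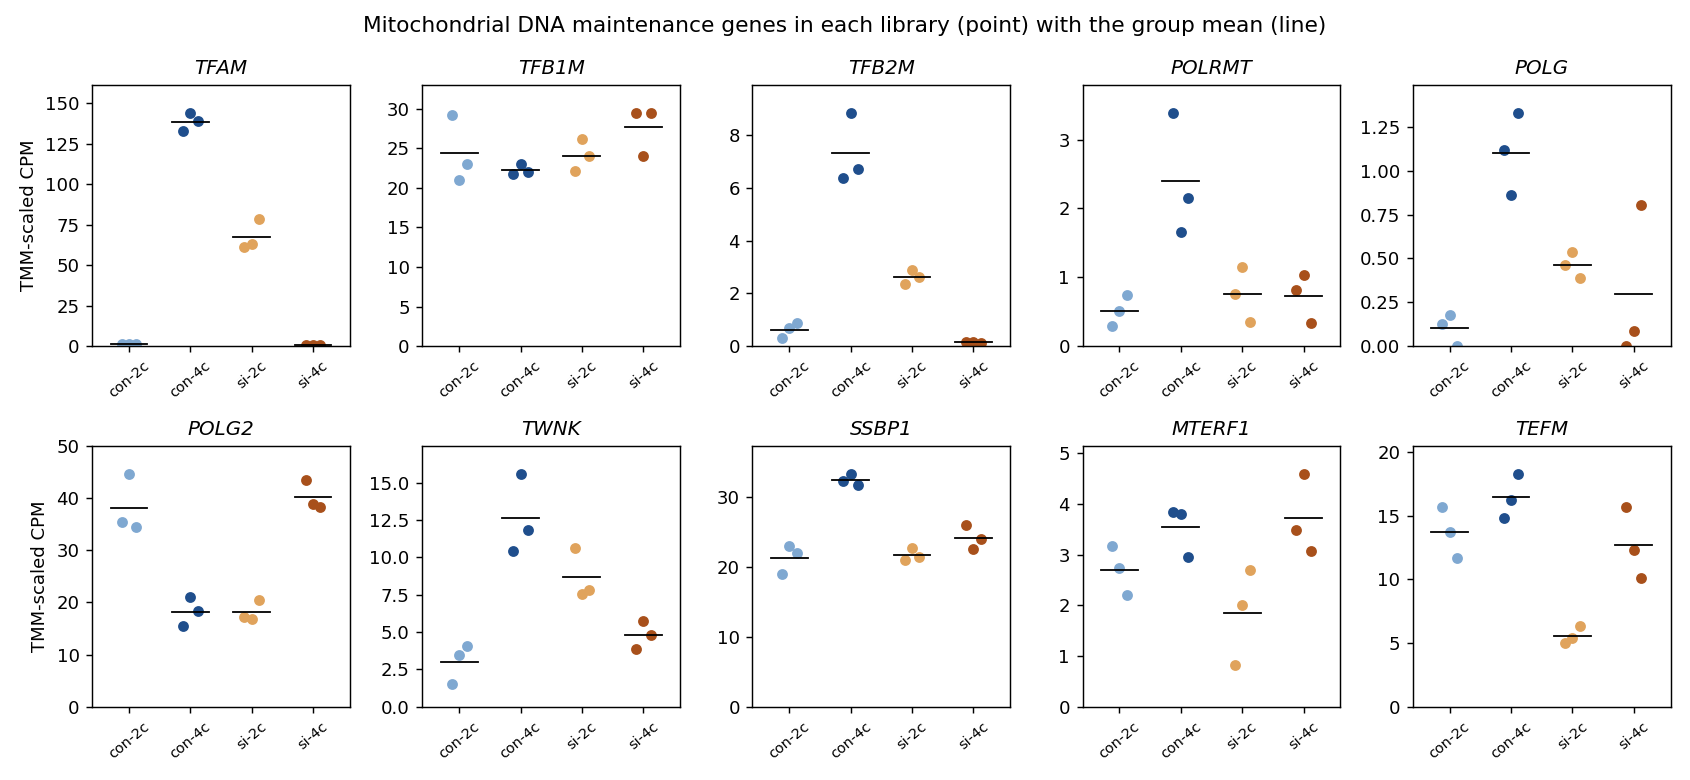
TMM-scaled CPM (vertical axes, each from 0) of the 10 members in the 4 groups, with 1 point per library and a line at the group mean. TFAM and TFB2M are near 0 in con-2c and si-4c but not in con-4c or si-2c, POLG2 has the reverse pattern, and TEFM is low in si-2c.

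POLRMT (ENSSSCG00000035693, chr2:77694271-77708099), the mitochondrial RNA polymerase itself, followed TFAM only in part. Its level was 0.286, 0.505 and 0.738 CPM in con-2c, 0.810, 1.04 and 0.329 CPM in si-4c, 3.39, 1.66 and 2.15 CPM in con-4c and 0.755, 1.15 and 0.343 CPM in si-2c. Only con-4c stood apart from the rest, and the other groups overlapped one another. The log2 fold change from si-2c to si-4c was -0.04 (SE 0.55, adjusted p = 0.974 by edgeR), and that of si-2c against con-2c was 0.54 (SE 0.56, adjusted p = 0.533 by edgeR), both within 1 SE of 0. Set against con-4c, POLRMT was lower in si-4c (log2 fold change -1.72, SE 0.55, adjusted p = 0.0206 by edgeR), and the call was lost without con-4c replicate 1 (-1.38) or without si-4c replicate 3 (-1.37). Si-2c stood below con-4c without overlap (-1.68, SE 0.54), at an edgeR adjusted p of 0.0724, where DESeq2 gave 0.0240.

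TEFM (ENSSSCG00000017741, chr12:42864582-42875705) keeps the mitochondrial polymerase elongating, and it had a pattern unlike that of TFAM. Its level was 15.7, 13.7 and 11.7 CPM in con-2c, 15.7, 12.3 and 10.1 CPM in si-4c, 14.8, 16.2 and 18.3 CPM in con-4c and 5.02, 5.36 and 6.33 CPM in si-2c. Every si-2c library lay below every library of the other groups, and those groups overlapped one another. The si-2c level of TEFM was below that of con-2c (log2 fold change -1.29, SE 0.18, adjusted p = 2.90e-05 by edgeR) and that of con-4c (-1.56, SE 0.18, adjusted p = 2.79e-05 by edgeR). Si-4c exceeded si-2c by 1.19 (SE 0.18, adjusted p = 7.28e-05 by edgeR), whereas si-4c against con-4c gave -0.37 (SE 0.17, adjusted p = 0.101 by edgeR). The interaction of si with title stage was 0.92 for TEFM (SE 0.24, adjusted p = 0.00552 by edgeR), under the minimum fold, and 0.25 with library totals. In the RefSeq annotation the gene overlaps ATAD5 and ADAP2. ATAD5, which unloads the sliding clamp in nuclear replication, was at 87.8 ± 6.30 CPM in con-2c, 94.0 ± 2.96 in si-4c, 46.7 ± 2.27 in con-4c and 43.8 ± 1.37 in si-2c (SD, n = 3), so that con-4c stood beside si-2c at the low level for ATAD5 and beside con-2c for TEFM. TEFM was called in the comparisons within the si arm and by 2c title, and ATAD5 was called there in the same direction. ATAD5 was at -1.0 from con-2c to si-2c (SE 0.08, adjusted p = 8.52e-08 by edgeR) and 1.10 from si-2c to si-4c (SE 0.08, adjusted p = 2.64e-08 by edgeR). TEFM was also called in si-2c against con-4c, where the ATAD5 means lay close together. In si-4c against con-4c ATAD5 was called higher (1.01, SE 0.08, adjusted p = 4.36e-08 by edgeR) and TEFM was not called. The part of shared reads was not tested.

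MTERF1 (ENSSSCG00000015309, chr9:71287587-71853866), a factor that binds mitochondrial DNA and can end transcription there, was also lowest on average in si-2c. Its level was 3.18, 2.73 and 2.21 CPM in con-2c, 3.48, 4.60 and 3.08 CPM in si-4c, 3.85, 3.81 and 2.96 CPM in con-4c and 0.828, 2.01 and 2.70 CPM in si-2c. The si-2c libraries overlapped those of con-2c and lay below those of con-4c and si-4c. The difference between si-4c and si-2c sat at the minimum fold (log2 fold change 1.0, SE 0.34, adjusted p = 0.0362 by edgeR) and was called in 8 of 18 alternative settings. It was not called by DESeq2 (0.98), with library totals (0.62), with a filter of at least 1 CPM (0.96) or when only these groups were fitted (1.0). The call was also lost without si-2c replicate 1 (0.66) and in the 4 other settings that each left out con-2c replicate 3, si-2c replicate 2, si-4c replicate 1 or si-4c replicate 2 (0.82 to 1.07). The RefSeq span of 566280 bases takes in CDK14 and FZD1, and how reads over such overlaps were assigned was not stated.

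TFB1M (ENSSSCG00000024361, chr1:11566193-11650656), a paralogue of TFB2M that methylates the small ribosomal RNA of mitochondria, was called in no comparison. Its level was 29.2, 21.0 and 23.0 CPM in con-2c, 29.5, 24.1 and 29.5 CPM in si-4c, 21.8, 23.0 and 22.0 CPM in con-4c and 22.1, 26.2 and 24.0 CPM in si-2c. The groups overlapped except si-4c and con-4c, which differed by 0.31 on the log2 scale (SE 0.13, adjusted p = 0.0697 by edgeR). From si-2c to si-4c the log2 fold change was 0.20 (SE 0.13, adjusted p = 0.282 by edgeR), and between si-2c and con-2c it was -0.02 (SE 0.13, adjusted p = 0.942 by edgeR). The paralogues TFB1M and TFB2M therefore had unlike profiles in the same libraries.

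Among the replication factors, POLG2 (ENSSSCG00000036057, chr12:14582075-14601576), the accessory subunit that lengthens the runs of polymerase gamma, went against TFAM. Its level was 35.5, 44.7 and 34.4 CPM in con-2c, 43.4, 38.8 and 38.3 CPM in si-4c, 15.5, 21.0 and 18.3 CPM in con-4c and 17.2, 16.9 and 20.4 CPM in si-2c. Con-2c and si-4c overlapped each other at the high level, con-4c and si-2c overlapped each other at the low level, and the lowest library of the high groups, at 34.4 CPM, stood above the highest of the low ones, at 21.0 CPM. POLG2 rose from si-2c to si-4c (log2 fold change 1.14, SE 0.13, adjusted p = 5.12e-06 by edgeR) and its si-2c level was below that of con-2c (-1.07, SE 0.13, adjusted p = 9.99e-06 by edgeR). The si-4c level was above that of con-4c (1.14, SE 0.13, adjusted p = 3.68e-06 by edgeR). Across the high pair, si-4c against con-2c, the log2 fold change was 0.07 (SE 0.13, adjusted p = 0.948 by edgeR), and across the low pair, si-2c against con-4c, it was -0.01 (SE 0.13, adjusted p = 0.990 by edgeR). Without con-2c replicate 2 the value against con-2c was -0.95 and under the minimum fold. With library totals in place of TMM factors the 3 differences kept their signs at 0.76, -0.67 and 0.88 but missed the minimum fold.

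POLG (ENSSSCG00000001838, chr7:54889150-54907167), the catalytic subunit, was too sparse for firm comparison, with 4, 6 and 0 counts in con-2c, 0, 3 and 27 in si-4c, 34, 26 and 41 in con-4c and 19, 20 and 18 in si-2c. Those counts correspond to means of 0.102 ± 0.0918 CPM (SD, n = 3) in con-2c, 0.298 ± 0.443 in si-4c, 1.10 ± 0.236 in con-4c and 0.462 ± 0.0747 in si-2c. The si-4c libraries disagreed among themselves, replicate 3 standing at 0.806 CPM and the others at 0.00 and 0.0868 CPM. POLG was called in none of the comparisons of si with control by stage (si-2c against con-2c 2.14, SE 1.16, adjusted p = 0.193 by edgeR, and si-4c against con-4c -1.88, SE 1.08, adjusted p = 0.196 by edgeR). Without si-4c replicate 3 the latter was -4.54 and called. Between si-2c and si-4c the log2 fold change was -0.63 (SE 1.07, adjusted p = 0.734 by edgeR), and without si-4c replicate 3 it was -3.29 and not called. The gene overlaps FANCI in the RefSeq annotation, which stood at 131 to 172 CPM in the group means, and how reads over the overlap were assigned was not stated.

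TWNK (ENSSSCG00000030428, chr14:112068463-112076169), the helicase that unwinds mitochondrial DNA ahead of the polymerase, was high in con-4c and si-2c as TFAM was. Its level was 1.50, 3.48 and 4.06 CPM in con-2c, 3.87, 5.75 and 4.81 CPM in si-4c, 10.4, 15.6 and 11.8 CPM in con-4c and 10.6, 7.53 and 7.83 CPM in si-2c. The con-4c and si-2c libraries all lay above those of con-2c and si-4c, with an overlap inside each pair. Against controls of the same title stage, TWNK was higher in si-2c (log2 fold change 1.52, SE 0.29, adjusted p = 6.72e-04 by edgeR) and lower in si-4c (-1.39, SE 0.28, adjusted p = 8.73e-04 by edgeR). From si-2c to si-4c it was lower by less than the minimum fold (-0.84, SE 0.28, adjusted p = 0.0307 by edgeR), and with library totals the value was -1.22 and called. MRPL43, a mitochondrial ribosomal protein gene that overlaps TWNK, was at 184 to 196 CPM in all group means and was not called in any of these comparisons.

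SSBP1 (ENSSSCG00000016488, chr18:8084292-8167983), which covers the displaced single strand during replication, differed between groups by less than the minimum fold. Its level was 18.9, 23.0 and 21.9 CPM in con-2c, 25.9, 22.5 and 24.0 CPM in si-4c, 32.2, 33.3 and 31.7 CPM in con-4c and 21.0, 22.7 and 21.4 CPM in si-2c. Con-4c stood above the other groups, which overlapped one another. Measured from con-4c, SSBP1 was lower in si-4c (log2 fold change -0.43, SE 0.10, adjusted p = 0.00385 by edgeR) and in si-2c (-0.58, SE 0.10, adjusted p = 0.00198 by edgeR), both below the minimum fold. From si-2c to si-4c the log2 fold change was 0.15 (SE 0.10, adjusted p = 0.320 by edgeR), and si-2c against con-2c gave 0.03 (SE 0.10, adjusted p = 0.879 by edgeR).

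**Figure D2:**
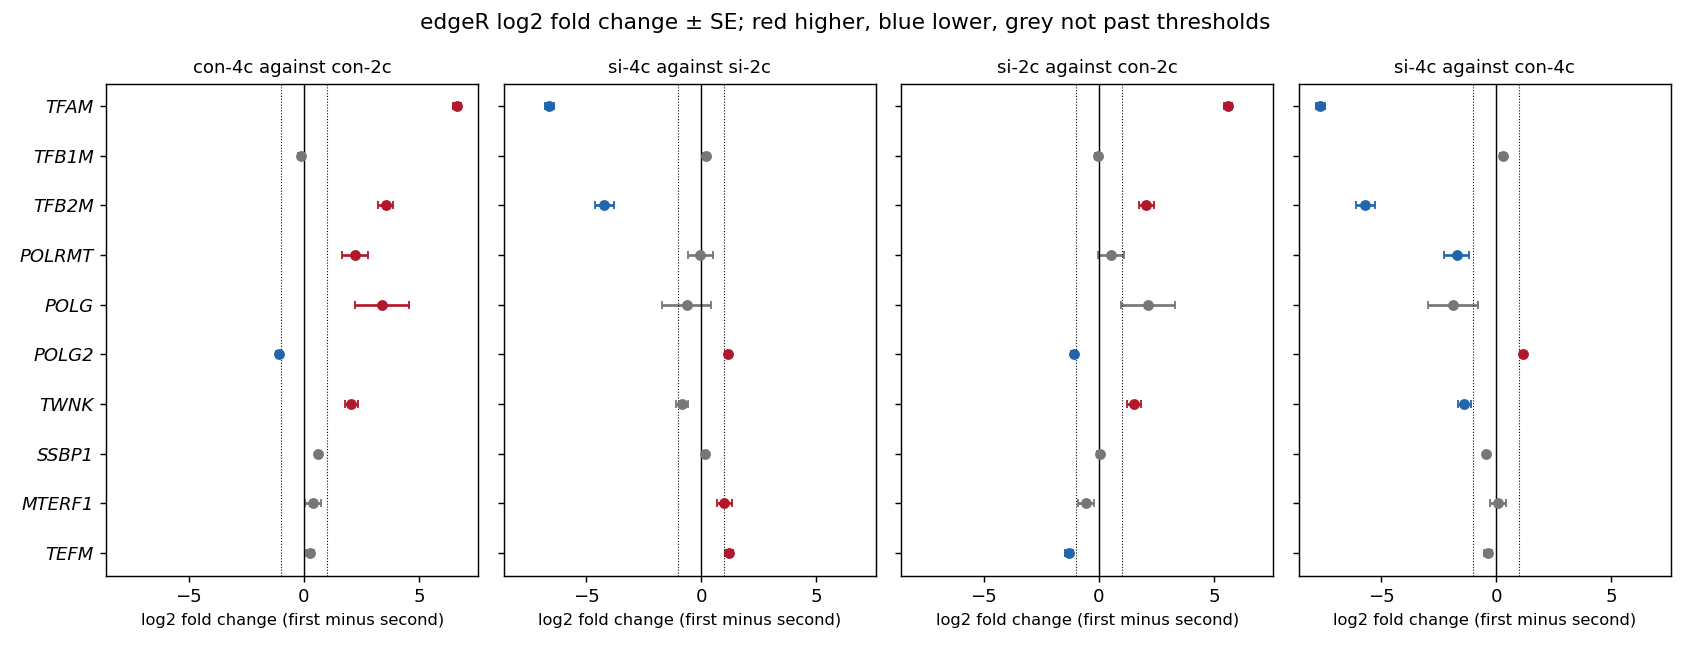
Log2 fold change (horizontal axis, first group minus second) of the 10 members in 4 comparisons, with bars of 1 SE, dotted lines at the minimum fold, and red or blue for values past both thresholds. TFAM and TFB2M lie far from 0 in each panel, TFB1M and SSBP1 lie near 0, and POLG has the widest bars. Colours in the control panel, and those of TFAM except in si-4c against si-2c, are a description without a test.

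Counted over the members, a gene was called where the edgeR adjusted p lay below 0.05 and the log2 fold change was 1 or more in size. The comparison con-4c against con-2c chose TFAM, so TFAM is left out of its count and nothing is read from it. Of the 9 other members 4 were higher and 1 lower, and 6 had no overlap between the groups, where 17.7% of all genes tested were past the thresholds and 48.6% had no overlap. The members higher in con-4c were TFB2M (11.8-fold), POLG (10.8-fold, on 0 to 6 counts per library in con-2c), POLRMT (4.70-fold) and TWNK (4.19-fold), and the lower one was POLG2 (0.478-fold). TFB1M, SSBP1, MTERF1 and TEFM did not pass. POLG was past the thresholds in 10 of the 17 alternative settings that could be fitted, and lost its call without con-2c replicate 1 or 3, without any one con-4c library and without si-2c replicate 2 (2.79 to 3.56). POLG2 was under the minimum fold with library totals (-0.79), without con-2c replicate 2 (-0.94) and without con-4c replicate 1 (-0.97).

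In si-4c against si-2c, 3 of 10 members were higher (POLG2, TEFM and MTERF1) and 2 lower (TFAM and TFB2M), where 13.3% of all genes were called. In this comparison 6 members had no overlap, against 42.8% of all genes. Without TFAM, whose values had been seen, 3 of 9 were higher and 1 lower, and 5 of 9 had no overlap. With library totals the call went to TFAM, TFB2M and TWNK, 3 in all. That scaling moves the median of all genes from -0.13 to -0.51 on the log2 scale. Relative to that median the members were in the same place under both scalings, for example POLG2 at 1.27 and 1.26 above it and TEFM at 1.31 and 1.31.

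In the comparisons of si with control, TFAM is left out and 9 members are counted. In si-2c against con-2c, TFB2M and TWNK were higher and POLG2 and TEFM lower, 4 of 9 called where 12.5% of all genes were, and 5 of 9 had no overlap beside 41.7%. With library totals 2 remained, TFB2M and TWNK, and the median of all genes moved from 0.12 to 0.52. In si-4c against con-4c, POLG2 was higher and TFB2M, POLRMT and TWNK were lower, 4 of 9 called beside 19.0% of all genes, and 7 of 9 had no overlap beside 50.9%.

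The study set its injected 4-cell profile beside that of control 2-cell embryos, and the crossed comparisons address this. In si-4c against con-2c, 1 of 9 members was called (TFB2M, lower) where 0.333% of all genes were, and 1 of 9 had no overlap where 14.1% of all genes had none. In si-2c against con-4c, TFB2M and TEFM were lower, 2 of 9 beside 1.79% of all genes, and 6 of 9 had no overlap beside 27.1%. TFAM itself was at 50.6% of con-2c in si-4c and at 48.7% of con-4c in si-2c, without overlap and given without a test.

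The difference of the title-stage difference between arms, the interaction, was called for 5 of 9 members beside 32.4% of all genes. It was negative for TFB2M (-7.76, SE 0.53, adjusted p = 3.02e-09 by edgeR), TWNK (-2.91, SE 0.40, adjusted p = 1.49e-05 by edgeR), POLRMT (-2.26, SE 0.78, adjusted p = 0.0259 by edgeR) and POLG (-4.02, SE 1.59, adjusted p = 0.0490 by edgeR), and positive for POLG2 (2.21, SE 0.19, adjusted p = 5.01e-08 by edgeR). The calls of POLG and POLRMT were both lost without con-2c replicate 1, without con-4c replicate 1 or without si-2c replicate 2, which left TFB2M, TWNK and POLG2. POLRMT was also not called without si-4c replicate 3 (-1.91), and POLG was called in only 2 of the 12 fits that left out a library, those without con-2c replicate 2 or si-4c replicate 3. Over the counted members the median log2 fold change was 0.05 in si-4c against si-2c beside -0.13 over all genes, 0.03 from con-2c to si-2c beside 0.12, -0.43 in si-4c against con-4c beside -0.11 and -0.46 in the interaction beside -0.23.

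Likeness to TFAM was measured as the root mean square difference of the 4 centred group means of log2 CPM, over 5776 genes with a symbol and a mean of at least 10 CPM in some group. The 5 nearest genes were FAU, RIMKLB, TPM3, SI and TNNI3, at differences of 0.0680, 0.127, 0.197, 0.225 and 0.243. FAU, which encodes a ribosomal protein fused to a ubiquitin-like domain, was at 2.68 ± 1.0 CPM in con-2c, 1.18 ± 0.0126 in si-4c, 254 ± 12.9 in con-4c and 110 ± 15.5 in si-2c (SD, n = 3). TFB2M, POLRMT, POLG and MTERF1 stayed below 10 CPM in every group mean and so were not among the genes compared. The genes nearest to TFB2M were ZNRD2 (0.371), RPS9 (0.383) and RND3 (0.428), a looser match. Those nearest to POLG2 were RPAP3 (0.0132), DNAJB4 (0.0179) and TRDMT1 (0.0235), which were also high in con-2c and si-4c. For TEFM they were TMED7 (0.224), NIP7 (0.225) and RPL11 (0.257), and for MTERF1 they were TMED7 (0.141), BNIP1 (0.149) and MPHOSPH10 (0.175), of which RPL11, a ribosomal protein gene, was at 48.4 ± 0.675 CPM in con-2c, 45.0 ± 5.98 in si-4c, 50.1 ± 1.0 in con-4c and 28.0 ± 4.85 in si-2c. TMED7, which acts in transport from the endoplasmic reticulum, was at 46.8 ± 24.6 CPM in con-2c, 48.9 ± 25.0 in si-4c, 49.8 ± 5.42 in con-4c and 29.6 ± 22.9 in si-2c, so its spread between libraries was about as large as its dip. These are 4 points per gene from the same 12 libraries, and the match is a description.

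**Figure D3:**
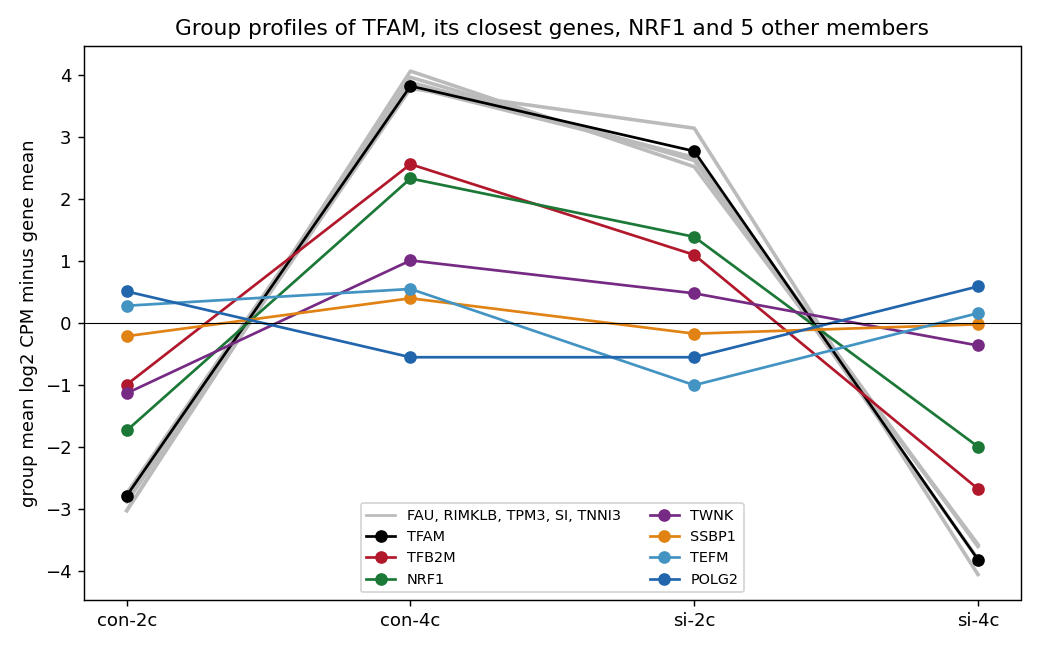
Group mean of log2 CPM minus the mean of the gene (vertical axis) in the 4 groups for TFAM, its 5 nearest genes in grey, NRF1 and 5 other members. TFB2M and NRF1 have the shape of TFAM with smaller amplitude, TWNK is high in con-4c and si-2c but lowest in con-2c (-1.13, with si-4c at -0.36), POLG2 runs against TFAM, and TEFM dips in si-2c.

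Further genes of the pathway were taken as 4 lists that do not contain the members. Of 16 listed partners in mitochondrial DNA replication and the nucleoid, 14 were tested, and edgeR called none in any of the 6 pairwise comparisons. DESeq2 also called none, and 5 to 7 of the 14 had an unadjusted edgeR p below 0.05 in the comparisons within an arm or between arms by stage, and 1 or 2 in the crossed ones. PHB2, a prohibitin of the inner membrane named after its values were seen, came closest to a call, at -1.0 (SE 0.13) in con-4c against con-2c and from con-2c to si-2c (adjusted p = 9.71e-06 and 1.34e-05 by edgeR), just short of the minimum fold. In the interaction 2 of 14 were called by edgeR and by DESeq2, both positive, 14.3% beside 32.4% of all genes, and these were PHB2 (1.70, SE 0.18, adjusted p = 6.99e-07 by edgeR) and its partner PHB1 (1.57, SE 0.17, adjusted p = 1.03e-06 by edgeR). The median log2 fold change of this list was -0.10 in con-4c against con-2c beside 0.11 over all genes, 0.32 in si-4c against si-2c beside -0.13, -0.24 in si-2c against con-2c beside 0.12 and 0.39 in si-4c against con-4c beside -0.11.

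Nuclear regulators of mitochondrial genes, the transcription factors and coactivators that act on promoters such as that of TFAM, had the highest share of called genes among the 4 lists in each comparison within an arm or between arms by stage. Of 15 tested, 7 were higher and none lower in con-4c against con-2c (46.7% called), 4 were lower and none higher in si-4c against si-2c (26.7%), 5 were higher, with none lower, from con-2c to si-2c (33.3%) and 7 were lower and none higher in si-4c against con-4c (46.7%). The shares over all genes were 17.7%, 13.3%, 12.5% and 19.0% in the same order, and their calls also lay mostly in these directions, with 2598 higher and 584 lower, 264 and 2136, 1918 and 324, and 562 and 2852. In the crossed comparisons edgeR called none, with 1 of 15 in si-4c against con-2c and 7 of 15 in si-2c against con-4c at an unadjusted p below 0.05, and DESeq2 called 1 lower and 0 in turn. In the interaction 8 of 15 were lower and none higher, 53.3% beside 32.4% of all genes. NRF1, a transcription factor for nuclear genes of the respiratory chain and for TFAM, was at 2.03 ± 0.301 CPM in con-2c, 1.69 ± 0.185 in si-4c, 34.6 ± 2.67 in con-4c and 18.3 ± 3.89 in si-2c (SD, n = 3), and from si-2c to si-4c it fell by 3.43 on the log2 scale (SE 0.18, adjusted p = 4.58e-10 by edgeR). YY1, a zinc finger factor with many targets, was at 4.81 ± 0.596, 4.72 ± 0.622, 15.5 ± 2.80 and 11.6 ± 0.752 CPM in the same order of groups and fell by 1.30 (SE 0.17, adjusted p = 1.93e-05 by edgeR). The other called regulators in si-4c against si-2c, named after their values were seen, were MYC (-5.89, SE 0.65) and the coactivator PPARGC1A (-3.64, SE 0.36). The ETS factor GABPA, a further activator of these genes that was likewise named after its values were seen, was not called there, with a mean of 91.2 ± 14.6 CPM in si-2c against 73.6 ± 2.95 in si-4c. With library totals, which shift all genes downward there, 7 in place of 4 regulators were called in that comparison.

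The supply of deoxynucleotides for mitochondria was covered by 15 tested genes, of which 1 was higher and 3 lower in con-4c against con-2c, 1 was higher in si-4c against si-2c, 1 was lower from con-2c to si-2c and 2 were higher in si-4c against con-4c. These are 26.7%, 6.67%, 6.67% and 13.3% of the list, beside 17.7%, 13.3%, 12.5% and 19.0% of all genes, so only the first of these shares lies above that of all genes. TYMS, thymidylate synthase, took part in each of these counts, with 228 ± 24.3 CPM in con-2c, 245 ± 17.8 in si-4c, 83.5 ± 3.52 in con-4c and 100 ± 6.76 in si-2c (SD, n = 3), and rose from si-2c to si-4c by 1.29 (SE 0.09, adjusted p = 1.41e-08 by edgeR). POLG2 had the same direction. Of the deoxynucleotide list 1 was higher in si-2c against con-4c, 6.67% beside 1.79% of all genes, and none was called in si-4c against con-2c. Its interaction was called higher for 3 and lower for 1, 26.7% beside 32.4% of all genes. Of 29 tested genes for processing, stability and decay of mitochondrial RNA, 3 were higher and 1 lower in con-4c against con-2c, 1 higher and 2 lower in si-4c against si-2c, 2 higher and 1 lower from con-2c to si-2c, and 1 higher and 4 lower in si-4c against con-4c. The shares called, 13.8%, 10.3%, 10.3% and 17.2%, were below those of all genes in each of these comparisons. In si-2c against con-4c 1 was lower, 3.45% beside 1.79% of all genes, and none was called in si-4c against con-2c. In the interaction 7 were higher and 4 lower, 37.9% beside 32.4% of all genes. PRORP, the nuclease of mitochondrial RNase P, was at 3.51 ± 0.853 CPM in con-2c, 3.48 ± 0.681 in si-4c, 19.7 ± 2.28 in con-4c and 10.9 ± 2.09 in si-2c (SD, n = 3), and from si-2c to si-4c it fell by 1.65 (SE 0.21, adjusted p = 1.35e-05 by edgeR). FASTKD2, which takes part in assembly of the mitochondrial ribosome, was at 105 ± 18.8, 88.2 ± 8.66, 47.1 ± 1.30 and 42.9 ± 9.38 CPM in the same order and rose by 1.04 (SE 0.14, adjusted p = 3.45e-05 by edgeR). Transcripts of the mitochondrial genome itself were not analysed here.

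**Figure D4:**
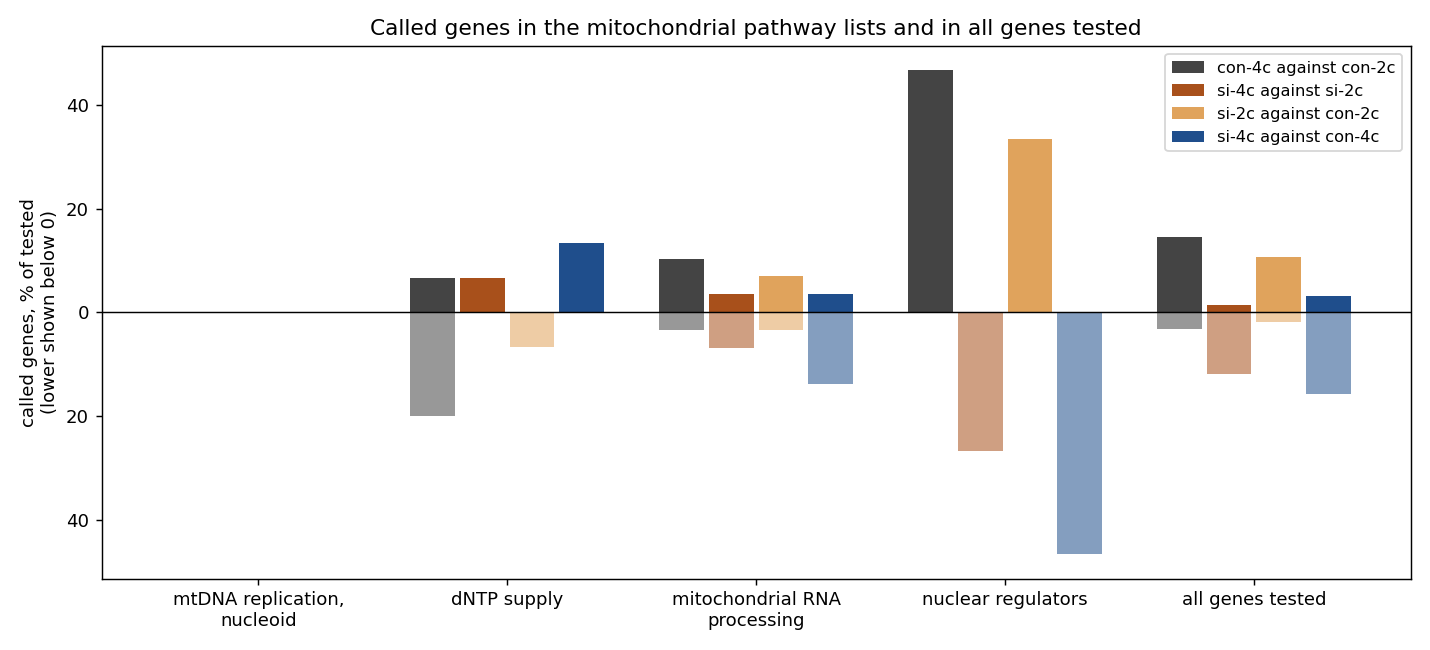
Percentage of tested genes called higher (bars above 0) and lower (paler bars below 0) in 4 pathway lists and in all genes tested, for 4 comparisons. The nuclear regulators have bars in 1 direction only in each comparison, up to 46.7%, where all genes have 12.5% to 19.0% called, and the replication and nucleoid partners have none.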

How the data were processed

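The table deposited by the authors holds unnormalized whole-number counts of 12 SMART-seq libraries by Ensembl gene. The submitters' processing notes list cutadapt 1.9, HISAT2 2.2.1, StringTie 2.1.6, DESeq2 and edgeR and the build Sscrofa11.1, without roles. Annotation release, strand setting and handling of multiply matching reads were not given in the sources used here, so members that overlap another gene (6 of 10) are uncertain. Coordinates are those of RefSeq for Sscrofa11.1, matched by symbol.

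Counts were fitted in R 4.3.3 with edgeR 4.0.16: filterByExpr, TMM factors (0.852 to 1.21), 4 group means over 12 libraries, quasi-likelihood tests, and Benjamini-Hochberg adjustment over 17995 genes. The biological coefficient of variation was 27.3% (common dispersion 0.0745). The thresholds were those of the study. SE was taken as the fold change on the log2 scale over the root of F. Amplified reads carry no molecular identifiers, and the methods give 3 sets of pooled embryos per group without stating, for these libraries, whether the sets came from separate fertilisations, so p-values measure the spread between these libraries, which may be technical. No replicate was a copy of another (chi-square over its degrees of freedom 7.22 to 42.7).

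The members and the lists were chosen with earlier results of these data known, and the values of TFAM in all groups had been seen, so they are no independent support. Named beside the members are, from each list, up to 2 genes called in each direction with the smallest p in si-4c against si-2c and a mean of 10 CPM or more in the higher group, and the genes nearest in profile. Alternatives were DESeq2 1.42.0, library totals, other filters, no minimum fold, a fit of only the groups compared, a replicate block and leaving out each library. The script was tested on simulated data.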

Additional observations from a re-analysis of the deposited data

Results flagged for a closer look

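The difference between 4c and 2c titles was not the same in si and in control libraries for 8 members, and this is what singled them out. The criterion was an edgeR adjusted p below 0.05 with no minimum fold, or for TFAM, which was not tested, opposite directions in every library. For TFAM the direction in the control libraries was fixed by the choice of the gene, and only that in the si libraries was not. Those si values had also been seen, so TFAM is listed as a description. The criterion on p was met by 7 of the 9 tested members beside 45.5% of all genes. Past both thresholds were 5 of 9 beside 32.4% of all genes. The interaction, si-4c minus si-2c less con-4c minus con-2c, was tested with edgeR over 12 libraries except for TFAM. On the log2 scale it was -13.26 for TFAM (SE 0.26), where each con-4c library stood above each con-2c library and each si-4c library below each si-2c library. The tested values were -7.76 for TFB2M (adjusted p = 3.02e-09), -2.26 for POLRMT (adjusted p = 0.0259), -4.02 for POLG (adjusted p = 0.0490), 2.21 for POLG2 (adjusted p = 5.01e-08), -2.91 for TWNK (adjusted p = 1.49e-05), -0.46 for SSBP1 (adjusted p = 0.0180) and 0.92 for TEFM (adjusted p = 0.00552). SSBP1 and TEFM did not reach the minimum fold, and with library totals they were at -1.11 and 0.25. TFB1M (0.33, adjusted p = 0.155) and MTERF1 (0.62, adjusted p = 0.323) did not pass. A reader who goes by the tissue label has to reverse the sign of each value.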

How the results depend on the processing

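Of 132 alternative counts of called members, 118 stayed within 1.5 times the main value and 14 were lower. For con-4c against con-2c this tally counts TFAM, which the count of 9 members above leaves out. Leaving out single libraries gave 4 to 6 there with TFAM, and without con-4c replicate 1 neither POLG nor POLG2 was called. Of 1241 alternative log2 fold changes, 1175 kept their side of the thresholds, 55 lost a call and 11 gained one. The sign changed in 28, none of them called in either setting. With library totals 3 members in place of 5 were called in si-4c against si-2c and 2 in place of 4 in si-2c against con-2c, because the median of all genes moves. With only the groups compared in the fit, 0 in place of 1 were called in si-4c against con-2c, as TFB2M fell below the filter of that fit. Leaving out single libraries gave 0 to 1 in si-4c against con-2c and 3 to 5 in the interaction (without con-2c replicate 1, con-4c replicate 1 or si-2c replicate 2, 3). The cause was not tested. Deviations of same-numbered libraries correlated between -0.0495 and 0.0290, which does not settle whether replicate numbers pair the libraries. A replicate block left 4 members called in si-4c against si-2c in place of 5 (without MTERF1), and 2087 in place of 2400 genes. POLG lost its call under the block in the interaction (-4.26) and between the control groups (3.26). With all genes, 191 were called by DESeq2 in place of 60 in si-4c against con-2c. The filter of at least 1 CPM removes POLG. POLG, POLRMT and the low groups of TFB2M rest on few counts, and the part of depth in their spread was not tested.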
